A study of Mus musculus with 4 samples.

Results

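Remote open regions are stretches of accessible chromatin that lie more than 100 kb from every annotated transcript start. They were taken from 4 ATAC-seq summit lists of embryonic mouse limb. All summits were extended by 250 bp on each side and overlapping stretches were merged into 74582 regions on chromosomes 1 to 19 and X. A merged region was kept when each of its summits lay over 100 kb from any transcript start of the GENCODE M1 annotation, whatever the type of the gene. This left 7705 remote regions, or 10.3% of the merged regions. The rule used position alone, so neither the scores nor the genotypes entered the choice.

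The 4 libraries came from forelimbs and hindlimbs of mouse embryos at E11.5, a stage of embryonic development when limb buds grow out and are patterned. All embryos were of the strain c57bl6.J X 129S6.sv. In the first 2 libraries the embryos carried a stop cassette insertion, a genetic element that ends transcription early, and in the other 2 they were wild type. The study concerned the long non-coding RNA locus Maenli and its neighbour En1. The labels do not say where the cassette sits, whether it is on 1 or both alleles, or how many embryos each library pooled. The libraries hold all cell types of the dissected limb, since no sort is described. A lower peak in such bulk material cannot be told apart from fewer cells of the type that carries it.

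ATAC-seq marks open chromatin by the insertions of the Tn5 transposase. Far from transcript starts, open regions are often enhancers, elements that raise transcription of a gene over a distance, or sites of CTCF, the protein at which chromatin loops are anchored. Genes that control development often stand at the edge of long stretches without other genes, called gene deserts, and their limb enhancers can lie deep inside them. Such an element is open in the cell types that use it, whereas promoters are open in most cells.

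The strongest remote region that all 4 lists held in each of 7 deserts described below is shown first. These elements are not typical of the remote regions. Only 15.8% of those were in all 4 lists, and their median percentile, averaged over the lists that hold a region, was 34.7. Each line gives the 2 flanking protein-coding genes, the position in mm9 and 241 bases of the plus strand of NCBIM37 centred on the summit with the highest percentile. Capitals mark matches on either strand to the E-box CATCTG or the homeodomain core TAATTA. The first is a binding sequence of basic helix-loop-helix factors such as Twist1, and the second is bound by many homeodomain proteins. No other of the 5 searched strings (the CTCF core, the HOX13 string CCATAAA and the TEAD string GGAATG) occurred in these windows, and a window without capitals holds none of the 5. The same elements of 3 further deserts, those of Efnb2, Sox6 and Foxc2, are not printed, and of these the Efnb2 window held 2 TEAD strings and 1 E-box and the Foxc2 window 1 TEAD string.
Nmbr to Cited2, chr10:16320852-16321092: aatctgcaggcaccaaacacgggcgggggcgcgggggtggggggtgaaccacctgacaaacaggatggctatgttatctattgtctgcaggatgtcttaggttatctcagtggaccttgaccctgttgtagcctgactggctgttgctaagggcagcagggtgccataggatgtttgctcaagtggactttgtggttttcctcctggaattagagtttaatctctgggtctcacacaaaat
Slc4a3 to Epha4, chr1:77295217-77295457: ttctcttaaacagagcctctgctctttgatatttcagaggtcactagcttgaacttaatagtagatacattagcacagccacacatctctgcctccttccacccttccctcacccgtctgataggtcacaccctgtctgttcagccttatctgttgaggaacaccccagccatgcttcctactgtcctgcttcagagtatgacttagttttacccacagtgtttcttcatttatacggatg
Robo1 to Robo2, chr16:73096950-73097190: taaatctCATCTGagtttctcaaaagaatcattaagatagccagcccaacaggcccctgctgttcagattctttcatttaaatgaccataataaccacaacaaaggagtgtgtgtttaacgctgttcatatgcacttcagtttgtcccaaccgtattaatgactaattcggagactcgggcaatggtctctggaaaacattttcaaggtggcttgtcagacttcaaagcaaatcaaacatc
Veph1 to Shox2, chr3:66290143-66290383: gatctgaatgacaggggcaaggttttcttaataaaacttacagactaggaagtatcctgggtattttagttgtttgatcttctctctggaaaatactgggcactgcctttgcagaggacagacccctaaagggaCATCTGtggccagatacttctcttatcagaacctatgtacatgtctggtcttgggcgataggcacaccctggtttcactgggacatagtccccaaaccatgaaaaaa
Camk1g to Plxna2, chr1:196049291-196049531: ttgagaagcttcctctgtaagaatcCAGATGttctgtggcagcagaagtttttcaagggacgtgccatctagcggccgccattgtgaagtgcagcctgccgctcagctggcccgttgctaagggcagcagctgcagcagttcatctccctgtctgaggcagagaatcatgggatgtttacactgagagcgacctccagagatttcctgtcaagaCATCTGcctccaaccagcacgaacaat
Zcchc6 to Gas1, chr13:60072724-60072964: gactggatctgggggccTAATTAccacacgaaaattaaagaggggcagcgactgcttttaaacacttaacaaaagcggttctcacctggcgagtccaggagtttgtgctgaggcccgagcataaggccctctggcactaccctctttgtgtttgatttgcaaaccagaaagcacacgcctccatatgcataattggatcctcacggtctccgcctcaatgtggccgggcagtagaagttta
En1 to Insig2, chr1:122637922-122638162: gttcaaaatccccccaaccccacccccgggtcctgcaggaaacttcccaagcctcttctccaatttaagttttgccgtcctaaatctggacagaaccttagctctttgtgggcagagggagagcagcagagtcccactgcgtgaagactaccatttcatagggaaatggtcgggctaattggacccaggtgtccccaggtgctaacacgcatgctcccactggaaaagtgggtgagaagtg

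The 7 windows held 4 E-boxes in 3 windows and 1 homeodomain core, so these strings mark some of the elements and not all of them. The Shox2 element at chr3:66290013-66291005 was the highest-ranked of them. It reached the 90.4 and 92.7 percentiles in the stop cassette lists and the 78.9 and 81.5 percentiles in the wild-type lists, where 100 is the strongest peak of a list. It lay 492 kb from the Shox2 start. The Epha4 element at chr1:77295066-77295901 followed, with percentiles of 89.3, 88.3, 77.4 and 68.6 in the same order of lists. It lay 216 kb from the start of Epha4, a receptor for ephrins. The Cited2 element at chr10:16320705-16321445 reached 88.1, 90.9, 71.99 and 71.8, and it lay 1122 kb from the Cited2 start. The other elements varied more between lists of a genotype. The Robo1 to Robo2 element at chr16:73096590-73097735 reached 61.9, 76.4, 51.1 and 83.1, and the Plxna2 element at chr1:196049046-196049680 reached 62.2, 85.7, 76.0 and 85.1. The Gas1 element at chr13:60072389-60073614 reached 50.8, 70.4, 75.5 and 46.0. Among the 10 elements the genotypes overlapped in 7, these 3 and those of Efnb2, Sox6, Foxc2 and En1 included. How many of all shared remote regions do not overlap was not counted. The elements without overlap are therefore not read as a difference between genotypes.

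Remote sequence was sparsely filled. Sequence over 100 kb from any start made up 562.5 of 2555.8 Mb, or 22.01% of the known sequence, and it held 13.7 regions per Mb against 33.6 per Mb nearer to starts. The gap was wider for regions that all 4 lists held, with 2.16 per Mb in remote sequence against 11.4 per Mb nearer. The nearer density exceeded the remote density 4.34-fold and 2.48-fold in stop cassette lists 1 and 2, and 3.56-fold and 2.91-fold in wild-type lists 1 and 2. Density also fell with distance inside remote sequence. It was 16.9 regions per Mb at 100 to 150 kb, 14.96 at 150 to 200 kb, 12.5 at 200 to 300 kb, 10.3 at 300 to 500 kb and 6.79 beyond 500 kb. Each of the 4 lists showed the same order over these 5 distance ranges. The distances of remote regions ran from 100.003 kb to 1075 kb with a median of 165.0 kb. Beyond 500 kb lay 294 regions, and 4 lay over 1 Mb away. The share in all 4 lists was somewhat lower just beyond the limit of the rule than just before it, and a break there was not tested. Of the 858 regions at 100 to 110 kb, 15.4% were in all 4 lists, and of the 1033 regions at 90 to 100 kb, 18.2% were.

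Remote regions were held by fewer lists than regions near starts. A single list held 3785 of them, or 49.1%, while 1639 were in 2 lists, 1066 in 3 lists and 1215, or 15.8%, in all 4. Regions within 1 kb of a start were in all 4 lists in 71.5% of cases, and regions 10 to 100 kb away in 19.2%. Most of the single-list regions came from the longest list. Stop cassette list 2, with 107827 peaks, held 6527 remote regions and alone held 2701, which is 35.1% of the remote regions against 22.2% of all regions. Stop cassette list 1, with 79083 peaks, held 2784 remote regions. Wild-type list 1, with 51701 peaks, held 2251, and wild-type list 2, with 68471 peaks, held 3559. Stop cassette list 1 thus held fewer remote regions than the shorter wild-type list 2.

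**Figure D1:**
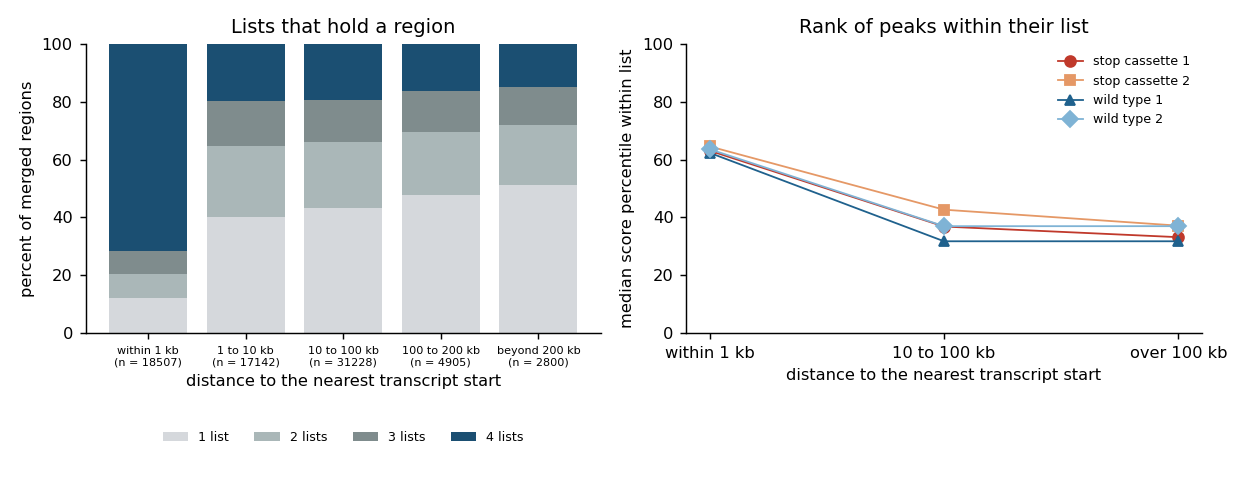
Left, percent of merged regions held by 1, 2, 3 or all 4 lists, in 5 ranges of distance to the nearest transcript start. Right, median percentile of the peak score within each list (100 is the strongest peak) for summits within 1 kb, 10 to 100 kb and over 100 kb away; the 4 lists lie between 62.3 and 64.5 near starts and between 31.7 and 37.1 beyond 100 kb.

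Counted by peaks, remote summits made up 4.72% and 8.56% of stop cassette lists 1 and 2, and 5.36% and 6.82% of wild-type lists 1 and 2. The 95% Wilson intervals, which cover counting error only, were 4.57 to 4.87, 8.39 to 8.73, 5.17 to 5.56 and 6.64 to 7.01. Both wild-type lists lay between the stop cassette lists. The mean was 6.64% ± 2.72 for the stop cassette lists and 6.09% ± 1.03 for the wild-type lists (SD, n = 2 each). The difference of 0.546 percentage points gave p = 1 in a two-sided exact permutation test, in which 2 against 2 lists allow 6 assignments and a smallest p of 0.3333. No comparison of the genotypes could therefore reach 0.05. Without stop cassette library 2 the difference was -1.38 percentage points, and without wild-type library 1 it was -0.185. With every list reduced to the 51701 highest scores the difference also changed sign, and the 4 shares became 3.51, 6.17, 5.36 and 5.80%. Nothing in the labels says that the libraries came from separate embryos, so the spread within a genotype may be technical.

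Remote peaks ranked low within their lists. Their median percentile was 33.1 and 37.1 in the stop cassette lists and 31.7 and 36.9 in the wild-type lists, whereas summits within 1 kb of a start had medians of 63.1, 64.5, 62.3 and 63.6. The 4 values of the remote group were all below the 4 values at starts. They differed little from those of summits 10 to 100 kb away, at 36.8, 42.7, 31.7 and 36.9, and many weak peaks share the same score, so equal medians are ties. Between genotypes the median differed by 0.800 percentile points, with means of 35.1 ± 2.82 and 34.3 ± 3.69 (SD, n = 2 each, exact permutation p = 0.667). That difference was -1.20 without stop cassette library 2 and -1.81 without wild-type library 1. Above the 90th percentile of their list lay 55 and 136 remote peaks of the stop cassette lists and 26 and 39 of the wild-type lists. As shares of the remote peaks these were 1.48 and 1.47% against 0.939 and 0.836%, so the genotypes did not overlap. The difference of 0.588 percentage points gave the smallest p that the test allows, 0.3333. Remote regions that all 4 lists held ranked higher, with medians of 49.1, 78.05, 46.6 and 62.7, than those that 1 list held, with 21.6, 28.3, 15.97 and 20.7.

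By genotype, 488 remote regions were found by both stop cassette libraries but not in the wild type, and for 36 it was the reverse. They are called stop cassette-specific and wild type-specific here. These are 6.33% and 0.467% of the remote regions, where 10% and 0.314% of all merged regions met the same conditions. The remote share of stop cassette-specific regions was thus below the background and that of wild type-specific regions slightly above it. The lists also differ in length, and the part of their lengths in these counts cannot be told apart from that of the genotype in the full lists. With 51701 peaks in each list there were 128 stop cassette-specific and 166 wild type-specific remote regions, so the larger group became the smaller. At that length they made up 2.97% and 3.85% of 4314 remote regions, against 5.21% and 2.23% of all regions. The difference in direction between remote regions and all regions at equal length was not tested. With a library left out, its condition drops too, and both counts grew in each such case. Without stop cassette library 1 the 2701 regions of stop cassette list 2 alone join the first group, which then numbered 3208, and without stop cassette library 2 it numbered 875. Without wild-type library 2 it was 1033. Regions held only on the wild-type side numbered 435 without stop cassette library 2, 517 without wild-type library 1 and 277 without wild-type library 2.

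The strongest stop cassette-specific remote region was chr17:82776246-82777085, in the gap between Slc8a1 and Pkdcc, the latter a secreted kinase gene needed for long bones. It reached the 89.7 and 88.2 percentiles in the stop cassette lists. The second was chr10:17269666-17270196, 173 kb from the Cited2 start, at the 87.8 and 85.9 percentiles. The strongest wild type-specific region was chr18:58614827-58615386, between Fbn2 and Slc27a6, at the 58.1 and 68.6 percentiles. The third wild type-specific region, chr10:17053308-17053926, again lay in the Cited2 desert, at the 65.5 and 42.5 percentiles. A summit of stop cassette list 2 lay 1233 bp from it. The Cited2 desert thus held regions of both kinds, 7 of the first and 1 of the second among its 54 remote regions. Over all remote regions the shares were 6.33% and 0.467%, and over all merged regions 10% and 0.314%.

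Remote regions were unevenly spread over the deserts. Gaps were drawn between neighbouring starts of protein-coding transcripts, and 1908 gaps contained remote sequence. Of these, 564 held 0 remote regions, 1100 held 1 to 9 and 244 held at least 10. The 244 gaps had 51.7% of the remote regions in 38.5% of the remote sequence. The 20 gaps with the most regions held 607 of them. Neighbouring remote regions were often close, with 26.5% of the spaces between them under 10 kb and a median space of 34.1 kb.

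The fullest gap was that between Nmbr and Cited2, chr10:14480027-17443034, with 54 remote regions. Cited2 codes for a coactivator of transcription used in embryonic development. The gap held 31 and 43 regions in the stop cassette lists and 14 and 26 in the wild-type lists, with 9 in all 4. As a share of the remote regions of each list these were 1.11 and 0.659% against 0.622 and 0.731%, so the genotypes overlapped once the lengths of the lists were taken into account. The 9 shared regions lay 127 to 2423 kb from the Cited2 start, and 3 of them between 1102 and 1178 kb. The next gaps were Ttll7 to Lphn2 with 36 regions, Rad51l1 to Zfp36l1 with 35 and Slc4a3 to Epha4 with 33. In the first of these only 1 region was in all 4 lists, although 30 were in stop cassette list 2. The gap between C030005K15Rik and Atp2b1 held fewer, 26, but 11 of them were in all 4 lists, the most of the 20 gaps.

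**Figure D2:**
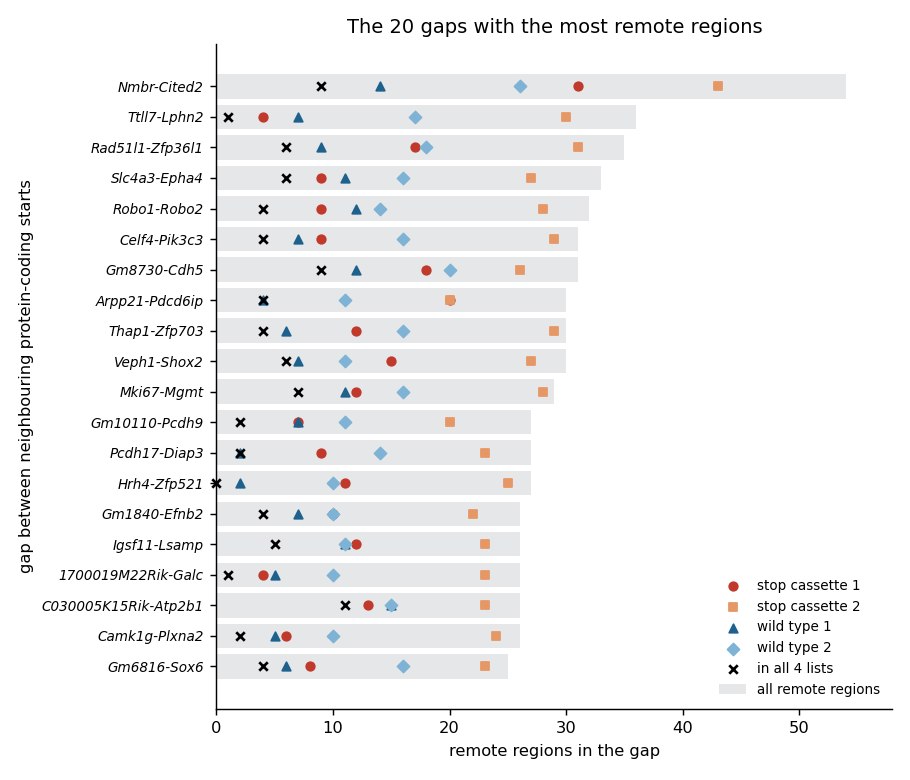
Number of remote regions in the 20 gaps with the most of them; grey bars count all regions, coloured symbols those held by each list and crosses those held by all 4. The Nmbr to Cited2 gap stands first with 54 regions, and stop cassette list 2 holds the most or shares the most in each gap.

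Signalling and patterning genes flanked 6 of the 20 gaps. The Epha4 gap, chr1:75548284-77511663, held 9, 27, 11 and 16 regions in the 4 lists, given here and below as stop cassette 1 and 2, then wild type 1 and 2. Of its 6 shared regions, 4 lay 1531 to 1742 kb from the Epha4 start, at the far end of the gap, and the others lay 619 and 216 kb from it. The gap between Robo1 and Robo2, genes of receptors for Slit guidance cues, held 32 regions, with 9, 28, 12 and 14 in the lists. Of the 4 shared ones, 3 lay in introns of Robo1. The gap between Veph1 and Shox2, chr3:66100759-66782354, held 30 regions in 0.482 Mb of remote sequence, or 62.3 per Mb. Shox2 is a homeobox gene required for the upper limb skeleton. Its lists held 15, 27, 7 and 11, and 3 of the 6 shared regions lay between 427 and 492 kb from the Shox2 start. The gaps next to Plxna2, a semaphorin receptor gene, and Efnb2, an ephrin gene, held 26 regions each. The gap that reaches into Sox6, a regulator of cartilage, held 25, and 4 of these were in all lists.

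**Figure D3:**
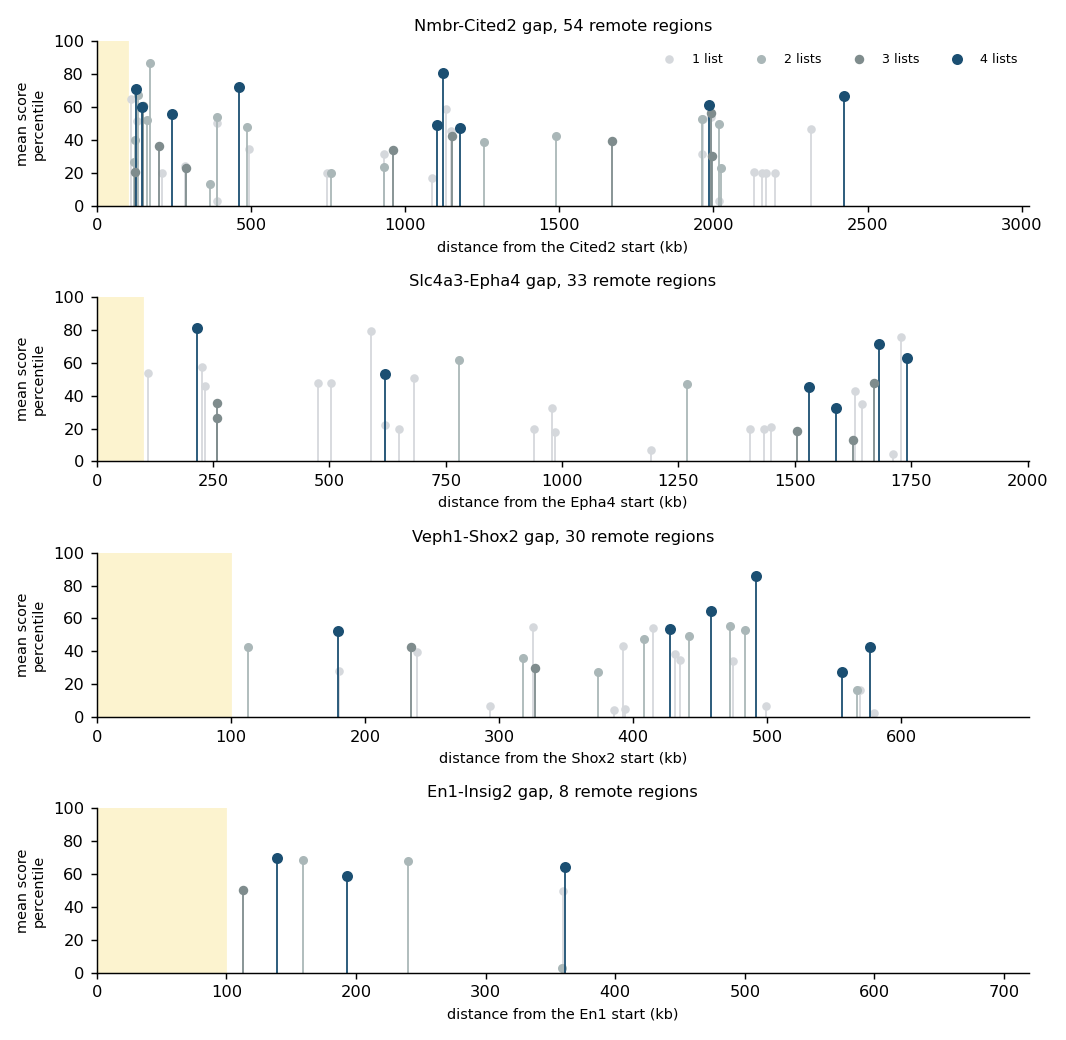
Each stem is a remote region, placed by its distance in kb from the start of Cited2, Epha4, Shox2 or En1, with the mean percentile of its score over the lists that hold it as its height and the number of those lists as its shade; the yellow band is the first 100 kb, which the rule leaves out. The Shox2 regions held by all 4 lists reach a mean of 85.9, and those of the En1 gap 69.9.

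By density, with at least 10 regions required, the gap between Fam92b and Gse1 led with 21 regions and 188.5 per Mb. The gap from Foxc2 to 1700018B08Rik, chr8:123640071-124065854, held 22 regions in 0.214 Mb, or 102.8 per Mb. Foxc2 is a forkhead factor of mesenchyme and vessels. Its lists held 13, 15, 7 and 15 regions, and 6 were in all 4. Both gaps lie within introns of Gm20388, a single putative transcript that spans many other genes, and 51 remote regions fell in its introns, the most of any gene. The gap between Zcchc6 and Gas1 held 15 regions, or 97.3 per Mb, with 7, 15, 7 and 6 in the lists and 5 in all 4. Gas1 codes for a surface protein that binds hedgehog signals. The 5 shared regions lay 108 to 206 kb from the Gas1 start. Other dense gaps lay between starts of Prkce (114.4 per Mb), Atad2b and Klhl29 (102.1) and Dock4 and Immp2l (94.4). Further ones lay between Dyrk2 and Cand1 (86.1), Phlda1 and Krr1 (84.1) and Dym and Smad7 (80.9). The Dym to Smad7 gap held 12 regions, and introns of Dym held 12 remote regions. Introns of Klhl29 held 18 and those of Dock4 held 13. Smad7 codes for an inhibitor of TGF-beta and BMP signalling. The dense gaps named here are short, with remote sequence of 0.111 to 0.214 Mb, so a few regions make a high density.

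The gap from En1 to Insig2, chr1:122498995-123203895, held 8 remote regions, at 26.2 per Mb. En1 is the homeobox gene that sets the ventral side of the limb. The 4 lists held 3, 8, 6 and 5 of the 8, so stop cassette list 2 held each of them and stop cassette list 1 the fewest. The 3 shared regions lay 139, 193 and 362 kb from the En1 start. Their percentiles were 46.8, 81.8, 71.2 and 79.7 at 139 kb, and 57.95, 71.1, 31.7 and 74.4 at 193 kb. At 362 kb they were 49.1, 85.0, 55.3 and 68.0. In all 3 the genotypes overlapped, and stop cassette list 2 ranked above stop cassette list 1. None of the 8 was stop cassette-specific or wild type-specific. The 3-list region 113 kb away and the pairs at 159 and 240 kb were each missing from stop cassette list 1. As a share of the remote regions of a list, the gap held 0.108 and 0.123% in the stop cassette lists. In the wild-type lists it held 0.267 and 0.140%. These shares do not overlap but rest on 3 to 8 regions. Both wild-type shares were also the higher in 18.4% of gaps with at least 10 regions, and smaller gaps were not counted.

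A share of the remote regions in each gap was also compared between genotypes, as a percent of the remote regions of a list. Among gaps with at least 10 regions, the share was higher in both stop cassette lists than in both wild-type lists in 42 of 244, or 17.2%. It was higher in both wild-type lists in 45, or 18.4%. Of the 20 fullest gaps, 3 met the first condition, 3 the second and 14 overlapped, so the fullest gaps were close to the background.

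Remote regions were denser next to genes of several regulatory classes, and densest next to limb transcription factors among the 8 gene lists. Gaps with a limb or mesenchyme transcription factor at an edge, 97 of them, held 692 regions at 26.5 per Mb, against 13.7 per Mb over all gaps. The density in the lists was 10.2, 23.3, 7.32 and 12.2 per Mb next to these genes and 4.95, 11.6, 3.99 and 6.32 per Mb over all gaps. The ratio was 2.05, 2.01, 1.83 and 1.93, so each list showed nearly the same excess despite its length. The 4 developmental lists together flanked 220 gaps with 1558 regions at 22.03 per Mb. Cartilage regulators stood at 23.2 per Mb, receptors of patterning signals at 18.6 and secreted signals and their antagonists at 18.2. Neural transcription factors, which are not among these 4 lists, stood at 17.5 per Mb, also above all gaps, and 20.1% of the regions there were in all 4 lists against 17.5% next to limb transcription factors. Gaps next to neuronal adhesion and channel genes, families that include cadherins, contactins and potassium channels, were sparser. They numbered 255 and held 1018 regions at 7.69 per Mb. Gaps next to olfactory and vomeronasal receptor genes held 12 regions at 11.2 per Mb, and 14 of the 17 held 0, or 82.4% against 29.6% of all gaps. These 17 gaps had only 1.07 Mb of remote sequence, against 561.3 Mb in all 1908 gaps. The part of gap size in the share of empty gaps was not tested.

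The order held within gaps of like size. In gaps with under 0.2 Mb of remote sequence the density was 35.2 per Mb next to limb transcription factors, 12.4 next to neuronal adhesion or channel genes and 21.1 next to genes of neither kind. In gaps with 0.2 to 1 Mb it was 26.7, 8.36 and 15.2 per Mb. Above 1 Mb it was 17.6, 6.55 and 7.96 per Mb, with 3 gaps in the first group. Gaps that also had a gene of the 4 developmental lists were left out of the neuronal group, here and in the split by distance. The order also held at each distance up to 500 kb. Next to limb transcription factors the density was 28.8 per Mb at 100 to 150 kb and at 150 to 200 kb, 22.6 at 200 to 300 kb and 23.9 at 300 to 500 kb. The last range, beyond 500 kb, had 4 regions next to these genes and is too thin to read. The gene lists were chosen by symbol, with earlier results of these data known, and a gap counts when either flanking gene is a member. The ratio to all gaps was added after seeing the data. The excess is thus a description and no independent test.

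**Figure D4:**
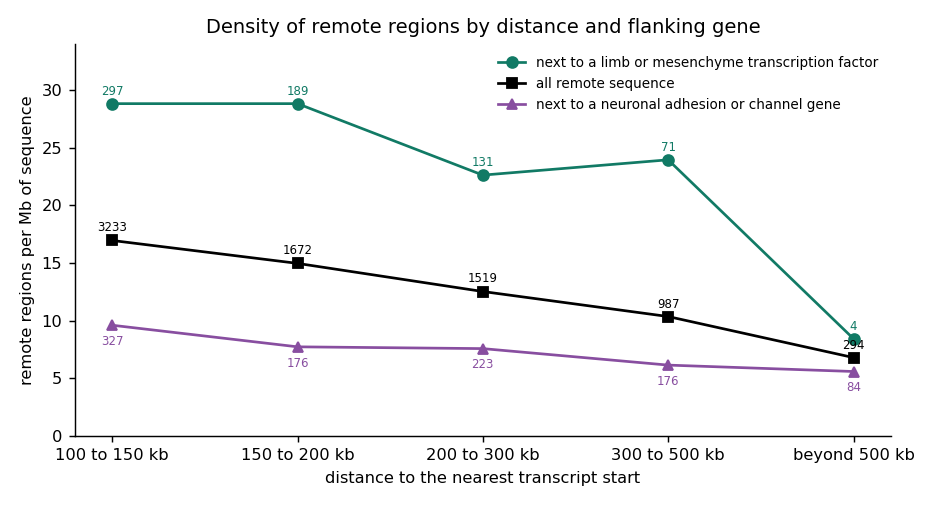
Remote regions per Mb of remote sequence in 5 ranges of distance to the nearest transcript start, for all remote sequence (squares), gaps next to a limb or mesenchyme transcription factor (circles) and gaps next to a neuronal adhesion or channel gene (triangles). The triangles leave out gaps that also have a gene of the 4 developmental lists. Numbers beside the symbols count the regions, and up to 500 kb the circles lie above the squares and the triangles below them.

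Developmental genes flanked more of the full gaps than of the empty ones. They stood at an edge of 6 of the 20 fullest gaps (30%), 2 of the 10 densest (20%) and 57 of the 244 gaps with at least 10 regions (23.4%). The share was 12.4% of gaps with 1 to 9 regions and 4.79% of gaps with 0, where 11.53% of all gaps had such a gene. Neuronal adhesion and channel genes also stood at 5 of the 20 fullest gaps (25%), against 13.4% of all gaps, but at 0 of the 10 densest and at 11.9% of gaps with at least 10 regions. Gaps with 0 regions were small, with a median of 0.0396 Mb of remote sequence. Among the deserts next to limb transcription factors, those of Mef2c, Zeb2 and Nr2f1 held 25 regions each, with 1, 5 and 3 in all 4 lists. That of Hand2 held 24 regions, and Trps1 23 on its Eif3h side and 21 on its Csmd3 side. Tshz3 had 20, Irx1 19, Tbx3 18, Tbx18 17 and Runx1 17. Hand2 codes for a factor of the posterior limb bud, and its regions were in the lists 13, 19, 7 and 10 times, with 5 in all 4. None of the 18 regions next to Tbx3 was in all 4 lists. Among signals, the desert between Bmp2 and Hao1 held 21 regions and that between Fgf10 and Nnt held 16, with 10, 15, 5 and 5 in the lists. Fgf10 is the growth factor that starts limb outgrowth.

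By chromosome, the X held few. Its 15.6 Mb of remote sequence carried 20 remote regions, or 1.28 per Mb, against 9.85 per Mb on chromosome 6, the next lowest, and 19.98 per Mb on chromosome 13, the highest. Nearer to starts the X held 11.4 regions per Mb, against 29.7 to 41.5 on the autosomes. The X was thus low in either class, and 1.18% of its regions were remote against 2.46 to 17.5% on the autosomes. The labels do not give the sex of the embryos.

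Most remote regions lay outside genes, with 5770 (74.9%) intergenic and 1898 (24.6%) in introns. Coding exons held 21 and other exons 16. Among intron hosts after Gm20388 were Gpc6 with 22, Robo1 with 20 and Auts2, Gpc5, Klhl29 and Sox6 with 18 each. Shared regions made up 3 of 20 in Robo1 and 0 of 22 in Gpc6. Remote regions were narrow, with a median merged width of 517 bp, and 843 bp for those in all 4 lists. The extension of single summits sets the lowest width. Their median GC content was 43.7%, between the 38.9% of all remote sequence cut into windows of the size of an extended summit and the 46.9% of regions 10 to 100 kb away. Windows with a ratio of observed to expected CpG above 0.6, as in CpG islands, numbered 120 (1.56%) against 63.7% of regions within 1 kb of a start.

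The 2 strongest remote regions held by all 4 lists lay partly in repeated sequence. The region chr3:5860401-5860932 reached a mean percentile of 99.998, and 37.2% of the 31-base words in its window occur once in the genome, with a median of 3 copies. The second, chr6:3150572-3151768, reached 99.9 and had 55.0% such words. Reads of repeated sequence can be placed wrongly, and no test of that was made. Only 27 remote regions, the one on chromosome 3 included, had under 50% of words found once. Among the next strongest, in unique sequence, were chr12:29975350-29976353, 237 kb from Myt1l at 96.0, and chr16:6095635-6096550, 713 kb from Rbfox1 at 95.1. Both genes are best known from neurons. The region chr10:96775567-96776623, 166 kb from Dcn, a matrix proteoglycan gene of connective tissue, reached 87.3, 96.7, 96.9 and 96.4 in the 4 lists. The region of all 4 lists farthest from any start was chr14:81375591-81376361, 976 kb from Olfm4, with percentiles of 53.0, 73.8, 20.2 and 46.6.

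Sequence at the summits was described by strings of letters, searched on both strands within 250 bp of the summit with the highest percentile. The CTCF core, which is CCA, AG and GGC with 2 free bases between them, occurred in 491 remote regions, or 6.37%. It occurred in 1.38% of the windows tiled over all remote sequence, in 13.2% of regions 10 to 100 kb away and in 6.77% of regions within 1 kb of a start. Remote regions thus carried it 4.63 times as often as remote sequence at large. In the lists the share was 8.19, 6.51, 6.49 and 6.996%. Of the matches, 273 or 54.5% were centred within 50 bp of the summit, where an even spread over the window gives 20.2%. The 4 strongest remote regions of all lists with a core near the summit are shown to let the core be seen, with 50 bases of the plus strand of NCBIM37 on each side of the summit, mm9 positions, and the core in capitals.
Sema5a to Sdc2, chr15:32708627-32708727: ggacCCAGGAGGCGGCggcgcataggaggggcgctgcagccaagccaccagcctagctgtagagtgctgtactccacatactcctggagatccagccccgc
Slc8a1 to Pkdcc, chr17:83256966-83257066: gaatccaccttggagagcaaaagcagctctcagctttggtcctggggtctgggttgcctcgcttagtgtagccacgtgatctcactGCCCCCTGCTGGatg
Ntm to Snx19, chr9:29945630-29945730: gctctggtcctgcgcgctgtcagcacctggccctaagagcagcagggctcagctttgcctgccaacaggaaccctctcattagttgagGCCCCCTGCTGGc
Ptger3 to Cth, chr3:157380701-157380801: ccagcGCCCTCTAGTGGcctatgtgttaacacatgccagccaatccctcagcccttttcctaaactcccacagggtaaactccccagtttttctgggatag

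The first of these, between Sema5a and Sdc2, reached 76.9, 88.6, 81.6 and 87.5 in the lists and lay 142 kb from Sdc2. The second, in the Slc8a1 to Pkdcc gap, reached 51.4, 93.3, 79.7 and 84.5. Stop cassette list 1 had the lowest percentile in both. In regions with a core the median percentile was 36.8, 57.7, 46.6 and 50.7, against 36.8, 45.1, 31.7 and 36.9 in those without, so it was higher in 3 lists and equal in stop cassette list 1. Regions with a core were in all 4 lists in 16.5% of cases and those without in 15.7%.

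Of the 17 strings, 13 occurred more often at remote regions than within 1 kb of a start, and the CTCF core and the GLI, ETS and NRF1 strings less often. The E-box CATCTG occurred in 43.9% of remote regions, 40.6% of those 10 to 100 kb away, 21.0% of those within 1 kb and 32.9% of remote sequence windows. Its matches were also gathered at the summit, with 30.4% within 50 bp. The HOX13 string CCATAAA, bound by the Hox proteins of the distal limb, occurred in 12.8% against 8.58% of remote sequence windows, 9.82% at 10 to 100 kb and 2.99% near starts. The TEAD string GGAATG occurred in 29.95% against 25.9% of remote sequence windows, with 27.004% of matches near the summit. TAATTA occurred in 23.3% against 20.5%, and its matches were fewer near the summit, 15.4%, than an even spread gives. The GATA string AGATAA was rarer in remote regions, 25.4%, than in remote sequence, 33.7%, and so was the SOX string ACAATGG, 6.90% against 9.43%, although both were commoner than near starts, where they occurred in 10.9% and 3.32%. The PBX-HOX string TGATTNAT occurred in 10.3% of remote regions and 10.8% of remote sequence windows. The GLI string GGGTGGTC, of the hedgehog pathway, occurred in 0.844% against 0.612% of remote sequence windows and 1.83% near starts. The NFI string, TTGGC and GCCAA 5 bases apart, had the highest ratio of the 17 strings, 4.80, but on 9 regions. A window rich in G and C holds GC-rich strings more often, and the GC content of remote regions and of remote sequence differed as given above.

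**Figure D5:**
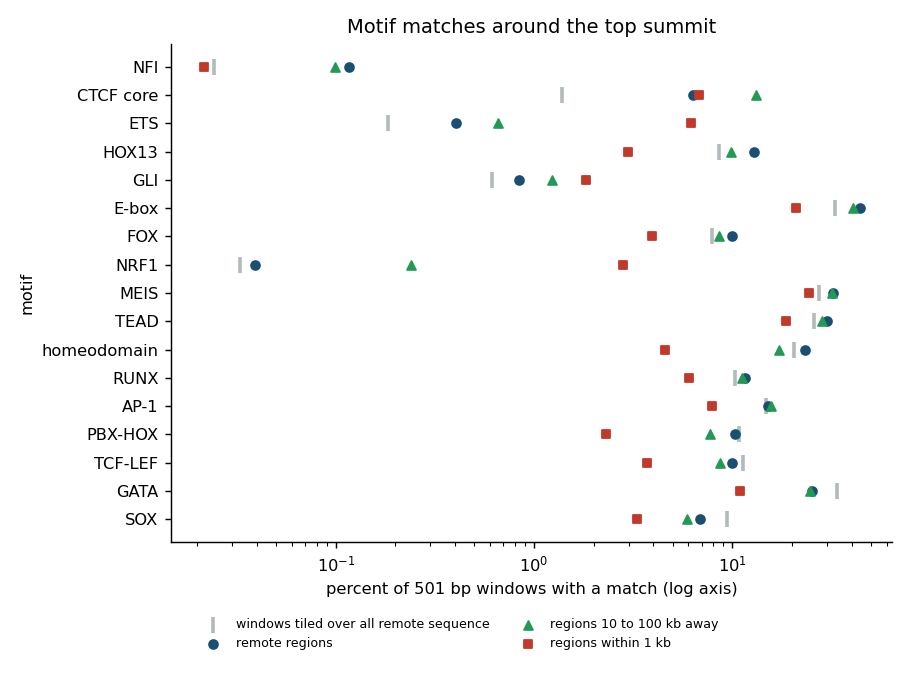
Percent of windows (250 bp on each side of a summit, or of the same width) with at least 1 match to each of 17 motifs, on a log axis, for windows tiled over all remote sequence (grey ticks), remote regions (circles), regions 10 to 100 kb away (triangles) and regions within 1 kb of a start (squares). Motifs are ordered by the ratio of remote regions to remote sequence, and the CTCF core stands at 6.37% against 1.38%.

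Words of 9 bases were counted without a list of motifs. Among 2455 words found within 50 bp of the summit in at least 25 remote regions, those far above remote sequence at large included pieces of the CTCF site and E-boxes. The word AGGTGGCGC, or GCGCCACCT on the other strand, occurred at 28 summits, 39.7 times its rate in remote sequence. Among the next 5 words by ratio were CAGCAGGGG at 70 summits and 11.8 times and CCAGCAGGG at 61 summits and 11.51 times. GCCCCGCCC, the GC box, ranked second at 18.4 times, but on 0.363% of remote regions against 8.49% of regions within 1 kb of a start. Among E-box words, CACATCTGG occurred at 72 summits and 9.71 times, and AACAGCTGG at 63 summits and 9.01 times. The share of CACATCTGG was 0.934% at remote summits, 0.775% at 10 to 100 kb and 0.162% near starts.

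The E-box and the homeodomain core were also counted as pairs, with 0 to 20 bases between them and the E-box in either direction. The 42 arrangements together gave 107 pairs in remote regions, 2.48 times the rate in remote sequence. The arrangement CATCTG, 4 free bases, TAATTA had the highest ratio of the 42, with 11 pairs and 10.3 times the rate in remote sequence. It was singled out after its count was seen, and 11 is a small number. The same arrangement occurred in 32 regions at 10 to 100 kb and in 1 within 1 kb of a start. With only TAAT as the second string there were 61 pairs, 4.63 times the rate in remote sequence. The 3 pairs in regions of all 4 lists are shown with 41 bases of the plus strand of NCBIM37, mm9 positions and the whole pair in capitals.
C030005K15Rik to Atp2b1, chr10:98270008-98270048: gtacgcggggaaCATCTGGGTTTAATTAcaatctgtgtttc
Tgfbr2 to Rbms3, chr9:116466010-116466050: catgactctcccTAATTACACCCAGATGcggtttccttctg
Nubpl to Arhgap5, chr12:53387851-53387891: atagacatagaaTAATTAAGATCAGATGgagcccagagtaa

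The first of these regions lay in the gap between C030005K15Rik and Atp2b1, which had the most shared regions of the 20 fullest gaps. The second lay between Tgfbr2, a TGF-beta receptor gene, and Rbms3, and the third between Nubpl and Arhgap5. Other pairs lay in the deserts of Nr2f1, a nuclear receptor gene, and Bmp2, in regions that 2 lists and 1 list held.

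The tissue was checked against markers by peaks within 1 kb of their starts. Of 10 limb mesenchyme genes, 6 had a peak in all 4 lists and 1 in none. All lists held a peak at 2 of 5 surface ectoderm genes, 1 of 5 endothelial genes, 3 of 5 blood genes, 2 of 5 neuronal genes and 0 of 5 muscle precursor and 0 of 5 liver genes. Of the liver genes 4 had none in any list. Peaks at starts say little of cell type, and the part of blood, vessel, skin and nerve cells in the remote regions was not tested.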

How the data were processed

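ATAC-seq peaks of 4 libraries were used, 2 per genotype. The deposited lists give a summit and a −log10 score per peak; the lowest score in each list is about 1.30, the −log10 of a q-value of 0.05, but the lists do not name the score. Bowtie2 2.2.6, Picard and the build mm9 are named in the submitters' processing notes, and the peak names in the deposited lists state removal of duplicates and mitochondrial reads and a mapping quality of 30. The peak caller is not given in the sources used here. Read depth is not known, so the number of peaks stands in for it, and scores were used only as percentiles within a list.

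Summits were extended by 250 bp, merged and measured against GENCODE M1 transcript starts. Presence, density per Mb and motif matches within 250 bp of the summit were counted with Python 3.11.15, numpy 2.4.6, pandas 2.3.3 and scipy 1.17.1. Genotypes were compared by two-sided exact permutation tests over lists. Merging and counting were tested on simulated data, where 100% of 6400 simulated regions were recovered. The simulated regions were placed well apart, so the merging of close neighbours was not tested. Named gaps were the 20 with the most regions, the 10 densest with at least 10 regions, and that next to En1, of which 1 of the densest is not reported here; named regions were the 10 highest by mean percentile in all 4 lists (again without windows under 50% unique), the 3 highest of each genotype and the 3 farthest. Other developmental deserts, words, pairs and the regions shown as sequence were chosen after their values were seen. The members and gene lists were chosen with earlier results of these data known. Alternatives were equal list length, a higher score limit, other distances, protein-coding starts only, a window of 100 bp on each side of the summit, a replicate block and each library left out.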

Additional observations from a re-analysis of the deposited data

How the results depend on the processing

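Rebuilt under other settings, the set of 7705 remote regions became one of 4314 at equal list length, 3204 above the pooled median score of 5.83, 15481 over 50 kb, 2800 over 200 kb and 12928 with protein-coding starts only. Those in all 4 lists numbered 746, 335, 2684, 417 and 2210 under the same 5 settings. Stop cassette-specific regions numbered 128, 294, 1118, 171 and 849, and wild type-specific ones 166, 4, 66, 12 and 68. The difference in remote share, 0.546 percentage points, became -0.747 at equal length. The difference in median percentile, 0.800, became -0.524 at equal length and -0.471 over 200 kb. The density ratio of 2.45 became 3.65 above the median score, and the fullest gap, still Nmbr to Cited2, had 33 regions. The CTCF share of 6.37% became 7.83% at equal length, 8.68% above the median, 8.02% over 50 kb, 5.32% over 200 kb and 5.28% within 100 bp of the summit. The density ratio of limb transcription factor gaps to all gaps, 1.94, became 1.67 over 50 kb and 2.07 over 200 kb; that ratio was added after seeing the data. The cause of these shifts was not tested, beyond the fewer or more peaks and starts that each setting admits.

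With each library left out in turn, the count of regions ran from 5057 to 7478, the share difference from -1.38 to 2.47 and the percentile difference from -1.81 to 3.41. Regions in all lists left ran from 1227 to 1756, stop cassette-specific ones from 608 to 3208 and wild type-specific ones from 45 to 517. The density ratio ran from 2.37 to 3.02, the fullest gap from 43 to 53, the CTCF share from 6.41 to 6.96% and the limb ratio from 1.87 to 1.99.

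Under the replicate block, a sign flip over 2 pairs gave p = 1 for the share difference of 0.546 and p = 0.5, the smallest its 4 assignments allow, for the percentile difference of 0.800 (exact permutation tests). The presence differences, list 1 minus list 2, had a correlation of -0.0145 between the genotypes over 7705 regions. The regions are not replicates and there are 2 pairs of lists. This value therefore cannot show whether same-numbered lists share more than a number. Read depth is not known, and list length limits what the weakest remote peaks can show.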
